A study of Mus musculus with 6 samples.

Results

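The transcripts described here are those of the proteasome, taken as every non-control probe whose gene name in the array files starts with Psm, followed by a letter from a to f, a number and optional letters. The rule found 86 of 56605 probes under 45 gene names, and 44 of these genes were tested among 19500. Psmb8, Psmb9 and Psmb10 (the immune catalytic subunits) with Psme1 and Psme2 (the 11S activator) were set against Psmb5, Psmb6 and Psmb7 (the constitutive catalytic subunits) and against the 28 other subunits of the 20S core and the 19S cap. No probe named Psme2 was analysed here. Psme2b, listed by RefSeq as a Psme2-like gene, has 2 probes and is given on its own, because signal of the near-identical Psme2 transcript cannot be told apart from it. Psmb11, the catalytic subunit of the thymus, was not well above background on any array and was not tested.

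Monocytes of the bone marrow of C57BL/6J mice aged 6 to 8 weeks, sorted with magnetic beads, were cultured for 60 h. The IFN-beta group received 20 ng/mL M-CSF, the cytokine under which monocytes mature into macrophages, together with the type I interferon IFN-beta at 100 U. The control group received M-CSF alone, so that both groups were under M-CSF. Each of the 3 samples per group was hybridised to 1 single-colour Agilent array. Whether the replicates were separate animals or cultures is not in the labels, and the p-values therefore cover only the spread between these samples. A level below is the log2 signal of a probe minus the 75th percentile of its array, and it compares arrays, not probes. A gene is called changed where its adjusted p in limma, taken over all 19500 genes, is under 0.05.

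The proteasome degrades ubiquitin-tagged proteins. Its 20S core is a barrel of alpha and beta rings, in which the constitutive subunits beta5 (Psmb5), beta1 (Psmb6) and beta2 (Psmb7) cut the chain, while the 19S cap recognises, unfolds and feeds in the substrate. Interferons induce beta5i (Psmb8), beta1i (Psmb9) and beta2i (Psmb10), which take the places of their constitutive counterparts in newly assembled cores to form the immunoproteasome. They also induce the 11S cap made of PA28 alpha (Psme1) and PA28 beta (Psme2), and together these shift peptide production for MHC class I.

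The immune and constitutive subunits are related proteins from separate genes, so the probes that separate them are shown first. In each pair below, capitals mark the bases that are identical where the 2 probes are aligned without gaps, and coordinates are given on mm9, as in the array files. The Psmb8 probe (chr17:34337771-34337830, plus strand) and the Psmb5 probe (chr14:55233161-55233220, minus strand) share 31 of 50 aligned bases, or 62%.
Psmb8: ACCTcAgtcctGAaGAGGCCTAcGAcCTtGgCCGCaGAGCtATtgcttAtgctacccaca
Psmb5: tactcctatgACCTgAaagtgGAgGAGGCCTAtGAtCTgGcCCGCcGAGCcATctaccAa
The Psmb9 probe (chr17:34319174-34319233, minus strand) and a Psmb6 probe (chr11:70341014-70341073, plus strand) share 27 of 48 aligned bases, or 56.25%. This Psmb6 probe is the dimmer of 2, and the brighter one stands for the gene in the values below.
Psmb9: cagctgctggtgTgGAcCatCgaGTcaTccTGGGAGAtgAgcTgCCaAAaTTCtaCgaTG
Psmb6: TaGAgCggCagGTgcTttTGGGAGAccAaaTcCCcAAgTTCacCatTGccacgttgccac

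The control arrays were not alike, which touches each result. Controls 1 and 2 differed little from each other (median absolute deviation of their log2 differences 0.116) and more from control 3 (0.344 and 0.363). Whether controls 1 and 2 come from separate RNA preparations is not in the labels. If they do not, the control arm holds 2 samples and the p-values are too small. With controls 1 and 2 averaged as 1 sample, 4 of the 44 proteasome genes were called higher (5.99% of all genes were), the 4 immune genes. The 10 monocyte and macrophage markers were all well above background on every array, with a summed signal of 1542 to 1603 on the IFN-beta arrays and 699 to 1024 on the controls, in units of the array's 75th percentile. Of 12 fibroblast and stroma markers, 6 were well above background on every IFN-beta array and 5 on every control, and their summed signal was 2.59 to 3.17 on the IFN-beta arrays, against 596, 685 and 1.92 on controls 1, 2 and 3. Of 9 neutrophil markers and 5 basophil and mast cell markers, all were well above background on every array. The neutrophil sum was 822 to 1001 on the IFN-beta arrays and 453 to 595 on the controls, and the basophil and mast cell sum was 57.6 to 84.3 on the IFN-beta arrays and 5.54 to 9.64 on the controls. The sum of 4 red cell markers was 1.57 to 2.27 on the IFN-beta arrays, against 134, 125 and 0.67 on controls 1, 2 and 3. That of 4 plasmacytoid markers was 101 to 129 with IFN-beta and 59.9 to 73.2 in the controls, and that of 7 lymphocyte markers was 1.78 to 2.41 with IFN-beta and 1.24 to 1.54 in the controls, with Cd79a and Ncr1 below background on all arrays. The part of these cells in the proteasome values was not tested, and in such bulk samples fewer cells of a type and less RNA per cell cannot be told apart. The 3 controls and IFN-beta 1 shared slide 1, while IFN-beta 2 and 3 were on slide 2.

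The comparison addresses the effect of the interferon on proteasome transcripts in maturing monocytes. The immune catalytic genes and Psme1 rose 2.27-fold to 3.29-fold with IFN-beta. The constitutive catalytic genes had estimates of 1.36-fold to 1.60-fold and did not pass the test, although Psmb5 and Psmb6 passed under some alternatives. Of the 44 proteasome genes tested, 7 were called higher (15.9%, against 11.8% of all genes tested) and 0 lower (8.04% of all genes), in limma. All but Psmc3ip had a positive log2 fold change, 43 of 44, where 58.1% of all genes tested had one. The median was 0.46, against 0.10 over all genes tested. The 2 groups did not overlap, with IFN-beta above, for 22 of 44 genes, where 23.4% of all genes did so.

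Psmb9, the beta1i subunit, showed the highest fold change of the 44. Its level was 4.82, 4.94 and 5.12 on IFN-beta arrays 1, 2 and 3, against 3.08, 2.98 and 3.66 on controls 1, 2 and 3. Every IFN-beta array lay above every control, and control 3 was the highest control. The log2 fold change was 1.72 ± 0.22 (SE, n = 3 arrays per group, limma adjusted p = 0.00193). A second probe of Psmb9, for another transcript, was well above background on 2 IFN-beta arrays and on no control, and was not tested.

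Psmb8, the beta5i subunit that carries the chymotrypsin-like activity, stood at 5.19, 5.32 and 5.46 on the IFN-beta arrays and at 3.73, 3.66 and 4.49 on the controls. The groups did not overlap, and control 3 lay 0.79 above the mean of controls 1 and 2. The log2 fold change was 1.37 ± 0.25 (limma adjusted p = 0.00882). Psmb10, the beta2i subunit, stood at 6.26, 6.09 and 6.37 on the IFN-beta arrays and at 5.03, 4.91 and 5.21 on the controls. Its 3 controls lay close together, and every IFN-beta array was higher. The log2 fold change was 1.18 ± 0.17 (limma adjusted p = 0.00325).

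Psme1 encodes the alpha subunit of the 11S cap, which opens the core without ubiquitin or ATP. Its level was 6.06, 6.09 and 6.24 on the IFN-beta arrays, against 4.53, 4.61 and 5.22 on the controls. The groups did not overlap, and the log2 fold change was 1.34 ± 0.22 (limma adjusted p = 0.00567). Psme2b stood at 6.80, 6.37 and 6.63 on the IFN-beta arrays and at 5.93, 5.94 and 5.85 on the controls. Its log2 fold change was 0.69 ± 0.17 (limma adjusted p = 0.0289). Its dimmer probe stood at 4.56, 4.95 and 5.07 on the IFN-beta arrays and at 3.95, 3.82 and 4.49 on the controls. That probe gave 0.77 and was not called (limma adjusted p over all probes 0.0522), and control 3 was the highest control by it but not by the brighter probe. The median log2 fold change of the 4 immune genes was 1.36, and with Psme2b added it was 1.34. They were chosen as interferon-inducible, with earlier results of these data known, so their direction is no independent evidence.

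The constitutive catalytic subunits lay higher on most IFN-beta arrays, by less than the immune subunits. Psmb5, the beta5 subunit, stood at 4.73, 4.67 and 5.03 on the IFN-beta arrays and at 4.01, 3.90 and 4.48 on the controls. Psmb6, the beta1 subunit, stood at 7.01, 6.78 and 7.11 on the IFN-beta arrays and at 6.25, 6.29 and 6.60 on the controls. For both genes the groups did not overlap, with control 3 nearest to the IFN-beta arrays. Psmb7, the beta2 subunit, stood at 3.36, 3.65 and 3.78 on the IFN-beta arrays and at 2.99, 2.99 and 3.47 on the controls, and IFN-beta 1 was below control 3. The log2 fold changes were 0.68 ± 0.21 for Psmb5, 0.59 ± 0.18 for Psmb6 and 0.45 ± 0.21 for Psmb7, with limma adjusted p of 0.0589, 0.0574 and 0.163. None was called, where 11.8% of all genes were called higher, and their median was 0.59. Psmb5 and Psmb6 lay near the threshold. Of 20 alternatives, Psmb5 was called higher in 7, Psmb6 in 5 and Psmb7 in 2. Both Psmb5 and Psmb6 were called with the deposited values (limma adjusted p = 0.0438 and 0.0337), with a filter that asks for all arrays above background (0.0457 and 0.0477) and with trend and robust eBayes (0.03 and 0.0338), Psmb5 also with quantile normalization (0.0392). All 3 were called with array weights (39.5% of all genes were called higher) and without control 3 (33.1%).

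**Figure D1:**
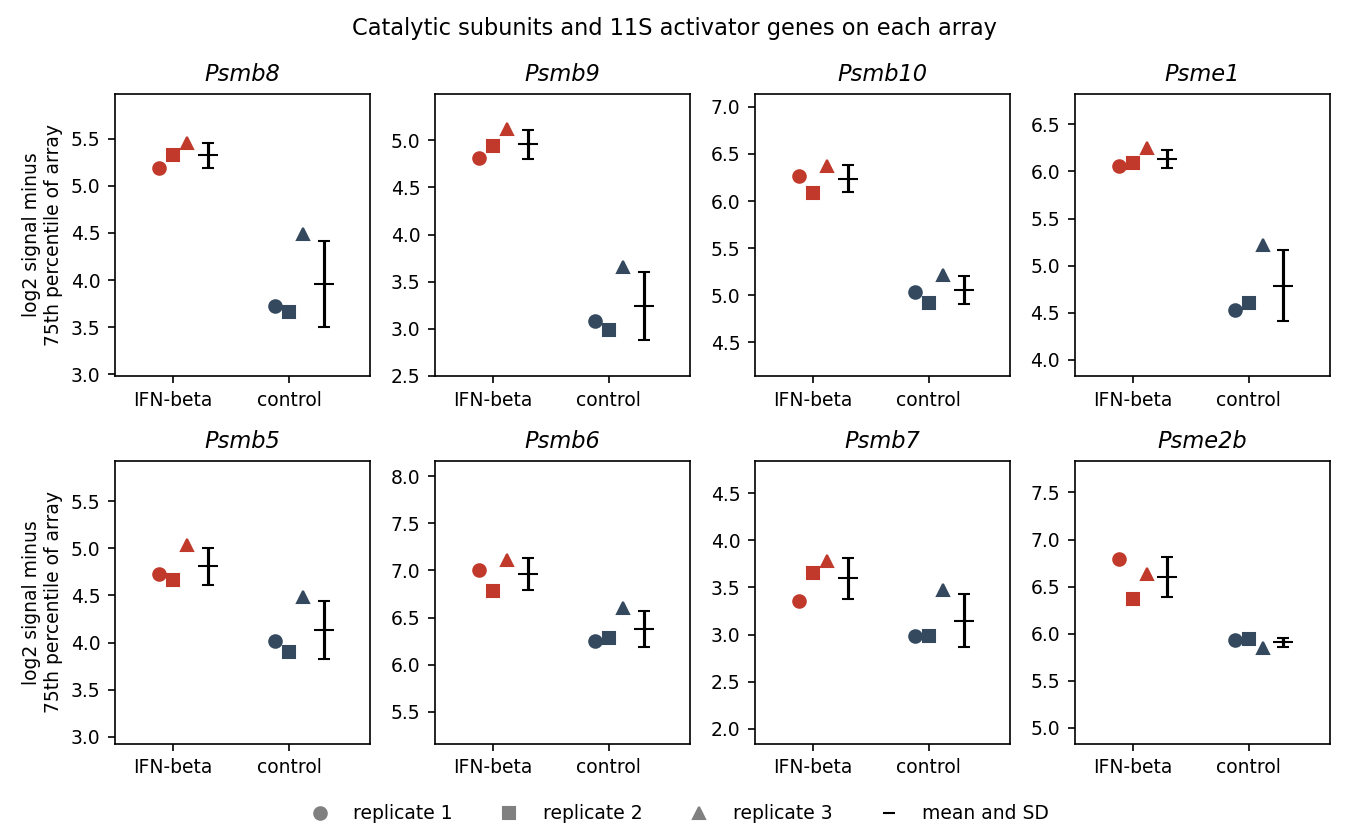
Level of 8 proteasome genes on each array (vertical axis, log2 signal minus the 75th percentile of the array, the same 3-unit span in each panel), with IFN-beta left of control. Points are arrays, and the black mark is the mean with the SD of 3 arrays. The immune catalytic subunits (upper row, first 3 panels) and Psme1 are separated by 1.18 to 1.72 on average, and the constitutive subunits beneath them by 0.45 to 0.68.

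The difference between an immune subunit and its constitutive counterpart on the same array does not depend on how arrays are scaled, and its change between groups was compared directly. Psmb8 minus Psmb5 was 0.46, 0.66 and 0.43 on the IFN-beta arrays and -0.28, -0.24 and 0.01 on the controls. Psmb9 minus Psmb6 was -2.19, -1.83 and -1.99 on the IFN-beta arrays and -3.17, -3.30 and -2.94 on the controls. Psmb10 minus Psmb7 was 2.91, 2.44 and 2.58 on the IFN-beta arrays and 2.05, 1.93 and 1.74 on the controls. In each of the 3 pairs every IFN-beta array lay above every control, so the immune transcript gained on the constitutive one. The absolute differences hold no information on which transcript is more abundant, since the probes differ.

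The change was 0.69 ± 0.12 for Psmb8 over Psmb5 (SE, a 1.61-fold gain), 1.13 ± 0.15 for Psmb9 over Psmb6 (2.19-fold) and 0.74 ± 0.16 for Psmb10 over Psmb7 (1.67-fold). An exact permutation test over the arrays (2-sided) gave p = 0.1 for each pair and 0.1 after Benjamini-Hochberg adjustment over the 3 pairs, which is the smallest p that 3 arrays against 3 allow. With the other Psmb6 probe, a setting chosen after the data were seen, the change of Psmb9 over Psmb6 was 1.08. Against control 3 alone, the changes were 0.51, 0.93 and 0.90.

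**Figure D2:**
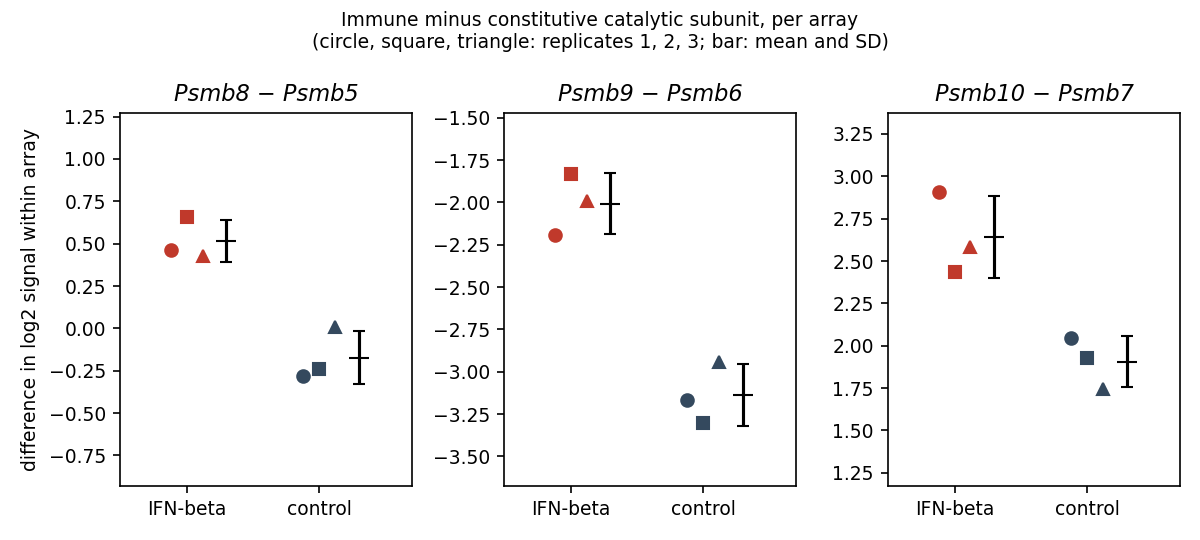
Immune minus constitutive subunit on each array (vertical axis, difference in log2 signal, the same span in each panel), with IFN-beta left of control. Points are arrays and the black mark is the mean with the SD of 3 arrays. In each panel the 3 IFN-beta arrays lie above the 3 controls, with mean changes of 0.69, 1.13 and 0.74.

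The rest of the core and cap had smaller estimates, and few genes passed the test. The 28 other 20S and 19S subunits had log2 fold changes from 0.16 to 0.73 with a median of 0.40, and 2 were called higher (7.14%, against 11.8% of all genes tested). These were Psmc1 and Psmc4, ATPases of the ring at the base of the 19S cap that unfolds the substrate. Psmc1 stood at 6.26, 6.34 and 6.53 on the IFN-beta arrays and at 5.48, 5.50 and 5.97 on the controls, a log2 fold change of 0.73 ± 0.19 (limma adjusted p = 0.0368). Psmc4 stood at 3.57, 3.88 and 3.89 on the IFN-beta arrays and at 3.1, 3.02 and 3.32 on the controls, a log2 fold change of 0.63 ± 0.18 (limma adjusted p = 0.0426). For both genes the groups did not overlap, and the second probe of each gave a similar value (0.85 and 0.65).

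Of the 7 alpha-ring genes, whose products form the gate of the core, none was called by its brightest probe (11.8% of all genes were called higher). Their log2 fold changes ran from 0.16 for Psma7 to 0.66 for Psma4, with a median of 0.54. The 4 beta-ring genes without catalytic activity, Psmb1, Psmb2, Psmb3 and Psmb4, ran from 0.20 to 0.60 (Psmb3, limma adjusted p = 0.056), with a median of 0.34. Psma8, the alpha subunit known from testis, was dim, at -0.38, -0.57 and -0.19 on the IFN-beta arrays against -0.96, -1.03 and -0.49 on the controls. Its groups overlapped, and its log2 fold change was 0.44.

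By the brightest probe of each, the 11 non-ATPase genes of the 19S cap had a median of 0.36. They ran from 0.27 for Psmd4, a ubiquitin receptor, to 0.52 for Psmd3, a subunit of the lid. Dimmer probes differed, with 0.74 and 0.49 for Psmd4, 0.81 for Psmd3, and 0.05 and 0.02 for Psmd6. Psmd14, the deubiquitinase of the lid, was at 0.46 ± 0.20 and Psmd2, a scaffold of the base, at 0.40 ± 0.22, both not called. The 6 ATPases had a median of 0.53. Psmc5, one of them, was scattered within both groups, at 3.69, 3.49 and 2.01 on the IFN-beta arrays and 2.22, 3.16 and 3.13 on the controls, from a single probe. Psmd5, Psmd9 and Psmd10, chaperones that help to assemble the base of the cap, were at 0.55, 0.57 and 0.39. Psme3, the nuclear 11S subunit PA28 gamma, Psme4, the activator PA200, and Psmf1, the inhibitor PI31, were at 0.54, 0.53 and 0.32. None of these 6 genes was called, where 11.8% of all genes were called higher.

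**Figure D3:**
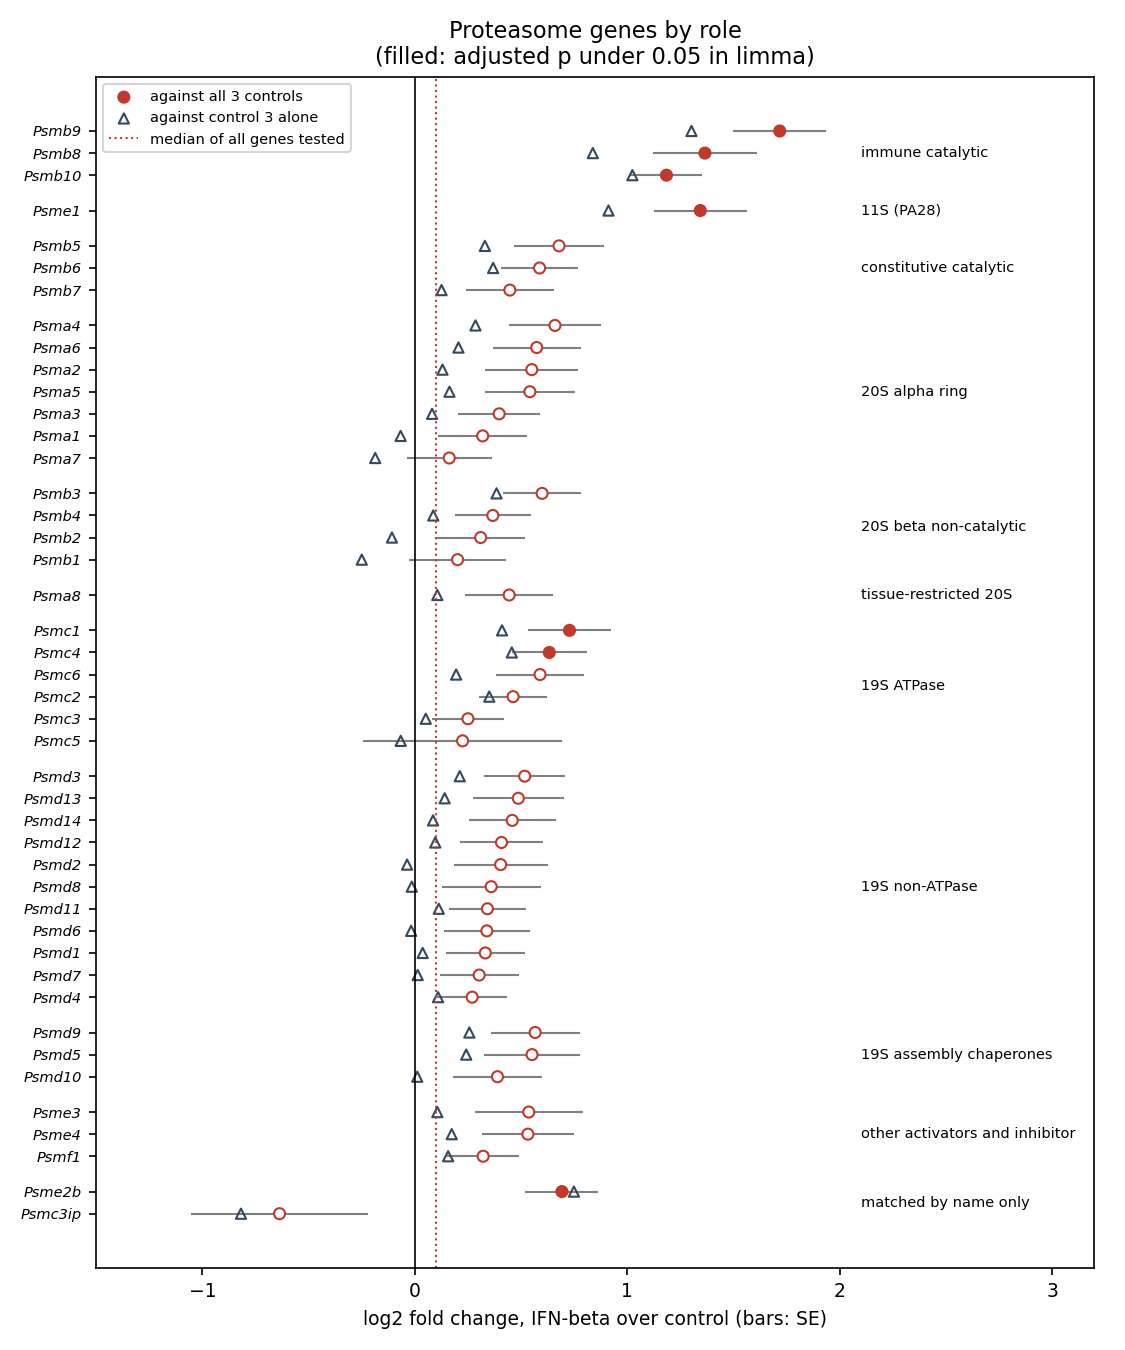
Log2 fold change of IFN-beta over control for the 44 tested genes by role (circles with SE, n = 3 arrays per group, filled where the limma adjusted p is under 0.05), beside the value against control 3 alone (triangles) and the median of all genes tested (dotted line at 0.10). The 4 immune genes lie between 1.18 and 1.72, and the 28 other core and cap subunits between 0.16 and 0.73.

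The size of the common shift depended on which controls were used. Over the 28 other core and cap subunits, the mean level relative to the controls was 0.39, 0.38 and 0.50 on the IFN-beta arrays and -0.16, -0.16 and 0.32 on controls 1, 2 and 3. For these genes control 3 lay nearer to the IFN-beta arrays than to controls 1 and 2. For the 4 immune genes the same means were 1.32, 1.35 and 1.54 on the IFN-beta arrays and -0.17, -0.22 and 0.38 on the controls, and control 3 lay nearer to controls 1 and 2. The place of control 3 was not particular to the 28 subunits. Over all genes tested, it lay a median of 0.35 above the mean of controls 1 and 2. The median log2 fold change of all genes was -0.10 against control 3 alone and 0.22 against controls 1 and 2.

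Against control 3 alone, the one control with fibroblast markers as low as on the IFN-beta arrays, 3 of 44 genes were called (5.22% of all genes were called higher), namely Psmb9, Psmb10 and Psme1, and 0 lower (4.34%). The single control is assumed in this fit to vary like the IFN-beta arrays. Their log2 fold changes there were 1.30, 1.02 and 0.91 (limma adjusted p = 0.0195, 0.0395 and 0.0475). Psmb8 was at 0.84 and missed the threshold (limma adjusted p = 0.0677). The median was 0.97 for the 4 immune genes, 0.33 for the constitutive catalytic genes and 0.09 for the 28 others, of which 20 were above 0, while the median of all genes was -0.10. Against controls 1 and 2, 38 of 44 genes were called higher, where 33.1% of all genes were, and 0 lower (15.1%). Medians were 1.60 for the immune genes, 0.70 for the constitutive catalytic genes and 0.55 for the others.

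Scaling on the spike-in probes in place of the 75th percentile lowered all genes, to a median of -0.25. The immune genes then stood at 1.01, the constitutive catalytic genes at 0.24 and the 28 others at 0.05, since this scaling lowers each gene by the same 0.35. The 4 immune genes were the 4 called (5.19% of all genes were called higher), and 0 were lower (16.5%). With slide as a block, 2 were called higher, Psmb9 and Psmb10 (3.41% of all genes), and 0 lower (1.92%). Within slide 1, where IFN-beta 1 stands alone against the controls and is assumed to vary as they do, 0 of the 44 were called higher (1.28% of all genes) and 0 lower (0.61%). The immune median was 1.25 in both. This sameness is fixed by the design, since slide 2 held only IFN-beta arrays and both estimates rest on slide 1. With array weights, which gave control 3 a weight of 0.105 and control 1 one of 5.98, 42 were called higher (39.5% of all genes) and 0 lower (19.9%). Leaving out any 1 of the 6 arrays kept Psmb9, Psmb8, Psme1 and Psmb10 called, with limma adjusted p of at most 0.0395, whereas Psmc1, Psmc4 and Psme2b lost their calls without some of the arrays (highest limma adjusted p 0.156, 0.167 and 0.111).

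**Figure D4:**
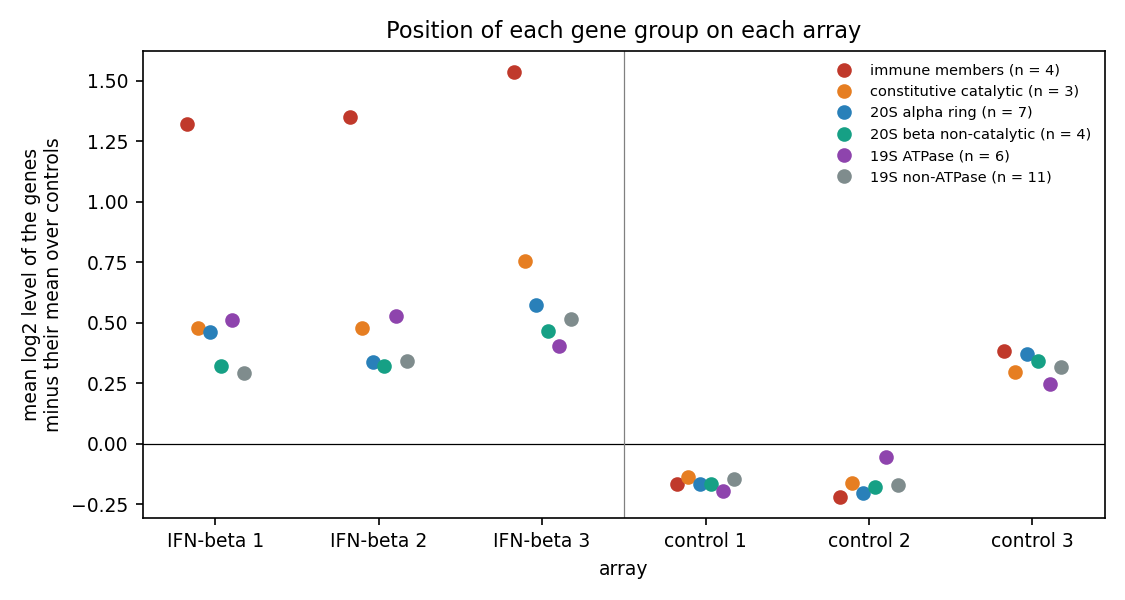
Mean level of 6 groups of proteasome genes on each array, relative to the mean of the same genes over the 3 controls (vertical axis, log2), with IFN-beta arrays left of controls. The 4 immune genes lie at 1.32 to 1.54 on the IFN-beta arrays and at -0.22 to 0.38 on the controls. The other 5 groups lie at 0.29 to 0.76 on the IFN-beta arrays and at -0.20 to 0.37 on the controls. On control 3 alone they lie at 0.25 to 0.37, and the immune genes at 0.38.

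Separate probes of a gene mostly gave the same direction. Of 80 probes tested, 15 were called higher (13.7% of all probes tested were) and 0 lower (7.83% of all probes). A positive estimate was found for 78 of the 80. Of the 25 genes with several tested probes, 2 had probes of opposite sign, Psmb2 and Psmc3ip. Psmc3ip, which meets the naming rule but encodes a partner of meiotic recombinases and not a subunit, was at -0.64 by one probe and 0.40 by the other. The median range between the probes of a gene was 0.31. Psma4, Psmb4, Psmd3, Psmd13, Psme3 and Psme4 were called by a dimmer probe only. For Psmd13 that probe gave 0.91 and for Psme3 0.87 (limma adjusted p over all probes 0.0144 and 0.0186), while the brighter probe gave 0.49 and 0.54.

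The genes beside the immune subunits were read in the order of the RefSeq table. Psmb9, Tap1, Psmb8 and Tap2 follow one another in the MHC on chromosome 17. Tap1 and Tap2 encode the transporter that carries proteasome products into the endoplasmic reticulum. Tap1 rose by 2.02 ± 0.19 and Tap2 by 1.28 ± 0.22 (limma adjusted p = 5.28e-04 and 0.007), while H2-DMb1, on the other side of Psmb9, was at -0.29 (limma adjusted p = 0.322). On chromosome 14, Emc9 between Psme1 and Psme2 was at -0.47 (limma adjusted p = 0.079), and Rnf31, on the far side of Psme2, which encodes the catalytic subunit of a linear-ubiquitin ligase, rose by 0.93 ± 0.18 (limma adjusted p = 0.0109). Beside Psmb10, Ctrl was at 0.32 (limma adjusted p = 0.502) and Lcat was not tested, nor was Fitm1 beside Psme1. Among neighbours of the constitutive genes, those of Psmb5 and Psmb6 were not tested. Nek6 beside Psmb7 rose by 1.22 ± 0.25 (limma adjusted p = 0.0145) and Nr5a1 on the other side of Psmb7 was at 0.04. Against control 3 alone, Tap1 kept its call (limma adjusted p = 0.00716), while Tap2, Rnf31 and Nek6 did not (0.0837, 0.11 and 0.146).

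The promoter windows of the 4 immune genes are shown because these genes rose together. Each runs from 250 bases before to 50 after the start of the gene, from RefSeq on GRCm38.p6. In Psme1 (chr14:55578244-55578543, plus strand), capitals mark a match to the pattern GAAA, any 2 bases, GAAA, the core of the interferon-stimulated response element, on the opposite strand.
Psme1: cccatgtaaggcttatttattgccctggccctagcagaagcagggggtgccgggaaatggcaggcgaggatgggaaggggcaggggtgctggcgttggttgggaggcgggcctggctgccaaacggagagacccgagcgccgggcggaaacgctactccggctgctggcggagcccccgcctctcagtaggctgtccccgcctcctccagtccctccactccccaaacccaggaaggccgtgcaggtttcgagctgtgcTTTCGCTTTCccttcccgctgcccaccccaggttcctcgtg
In Psmb8 (chr17:34197945-34198244, plus strand), capitals mark TTCNNNGAA, the palindrome that STAT dimers bind.
Psmb8: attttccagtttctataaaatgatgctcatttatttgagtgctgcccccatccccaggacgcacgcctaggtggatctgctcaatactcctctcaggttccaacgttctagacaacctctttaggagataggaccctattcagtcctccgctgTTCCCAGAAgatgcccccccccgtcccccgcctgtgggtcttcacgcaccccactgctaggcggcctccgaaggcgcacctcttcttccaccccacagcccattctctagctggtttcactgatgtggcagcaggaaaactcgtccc
Psmb9 (chr17:34187281-34187580, minus strand) holds neither pattern in this window. It shares 275 of its bases with the window of Tap1, the neighbour on the opposite strand, whose start lies 226 bases away.
Psmb9: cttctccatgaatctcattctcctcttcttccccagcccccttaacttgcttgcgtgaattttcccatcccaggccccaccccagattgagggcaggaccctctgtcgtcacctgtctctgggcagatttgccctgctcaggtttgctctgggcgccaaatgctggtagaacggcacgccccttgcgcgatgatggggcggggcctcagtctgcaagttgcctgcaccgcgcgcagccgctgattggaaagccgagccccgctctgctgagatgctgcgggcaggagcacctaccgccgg
Psmb10 (chr8:105938343-105938642, minus strand) likewise holds neither pattern.
Psmb10: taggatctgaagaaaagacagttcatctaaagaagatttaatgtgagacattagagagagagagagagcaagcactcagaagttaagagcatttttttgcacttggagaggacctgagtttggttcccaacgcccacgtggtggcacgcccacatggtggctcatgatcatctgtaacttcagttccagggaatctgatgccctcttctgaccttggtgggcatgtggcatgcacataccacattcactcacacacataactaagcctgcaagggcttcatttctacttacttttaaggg
Psme2 was looked up along with the members. Of the 39 matched in the RefSeq table, 4 hold the GAAA core on either strand (Psme1, Psmb3, Psmd4 and Psmd9). The share is 10.3%, against 3.99% of all genes in the table, and the difference was not tested. Of these 4, only Psme1 was called higher, while Psmb3, Psmd4 and Psmd9 were not (limma adjusted p = 0.056, 0.277 and 0.0954). Psmb8, Psmb9 and Psmb10 lack this core. The palindrome TTCNNNGAA was found in Psmb8 and Psmd2, or 5.13%, against 9.55% of all genes. TGACNNNGC, the antioxidant response element bound by NRF1 and NRF2 (NRF1 being known to drive constitutive proteasome genes), was found on either strand in 6 of 39 (Psmb5, Psmb6, Psmc6, Psmd12, Psmd9 and Psme4), or 15.4%, against 14.0% of all genes. The matches describe letters in these windows, and binding was not measured.

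Genes that assemble or serve the proteasome were counted from a further list. Of 23 genes for assembly factors and partners, 22 were tested, with a median log2 fold change of 0.37 (0.10 over all genes tested). Of the 22, 0 were called lower (8.04% of all genes) and 4 higher (18.2%, against 11.8% of all genes). These were Fbxo7, a ubiquitin-ligase subunit that binds PI31 (0.81 ± 0.16, limma adjusted p = 0.0138), Psmg1, a chaperone of the alpha ring (0.80 ± 0.18, limma adjusted p = 0.0189), Ecpas, an adaptor (0.63 ± 0.17, limma adjusted p = 0.0398), and Ubqln1, a shuttle for ubiquitinated proteins (0.67 ± 0.19, limma adjusted p = 0.0421). All 4 calls were lost against control 3 alone, and each also with 1 or more of the 6 arrays left out (highest limma adjusted p 0.0776 to 0.177). Pomp, the maturation factor of the core, stood at 6.66, 6.62 and 6.81 on the IFN-beta arrays and at 6.25, 6.24 and 6.78 on the controls, so control 3 lay among the IFN-beta arrays, and its log2 fold change was 0.27 (limma adjusted p = 0.365).

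Ddi2, the protease that releases NRF1, stood at 1.96, 1.99 and 1.98 on the IFN-beta arrays, against 2.37, 2.30 and 2.93 on the controls. Every IFN-beta array lay below every control, but the spread of the controls left the log2 fold change of -0.56 ± 0.21 short of a call (limma adjusted p = 0.0936). It was -0.96 against control 3 alone and -0.36 against controls 1 and 2, each past the threshold (limma adjusted p = 0.0351 and 0.033). Nfe2l1, which encodes NRF1, was at 0.13 ± 0.17 (limma adjusted p = 0.603).

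Of 7 peptidases that trim proteasome products, 6 were tested, 1 was called higher (16.7%, against 11.8% of all genes) and 0 lower (8.04% of all genes). It was Erap1, the aminopeptidase of the endoplasmic reticulum (0.90 ± 0.22, limma adjusted p = 0.0292), and its call was lost against control 3 alone and with some single arrays left out (highest limma adjusted p 0.118). Of 4 genes for interferon-inducible modifiers that are ubiquitin-like or act on them, 3 were tested. All 3 were called higher (100%, against 11.8% of all genes). They were chosen as interferon-inducible, so their direction is no independent evidence. Isg15, the ubiquitin-like modifier, stood at 7.03, 7.02 and 7.09 on the IFN-beta arrays and at 3.03, 2.92 and 3.82 on the controls. Control 3 was again the highest control, and far below the IFN-beta arrays. The log2 fold change of Isg15 was 3.79 ± 0.25, that of Uba7, which activates the modifier, 1.72 ± 0.17, and that of Usp18, which removes it, 4.33 ± 0.27 (limma adjusted p = 1.22e-04, 6.75e-04 and 9.73e-05). All 3 kept their calls against control 3 alone. Ubd, the gene of the modifier FAT10, was not tested, as its probe did not pass the filter.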

How the data were processed

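Gene expression was measured in 3 IFN-beta and 3 control samples of mouse bone marrow monocytes with 1 Agilent array each, labelled with Cy3. The authors quantified spots with Feature Extraction 12.0.3.1, per the file headers. From the deposited scanner files the processed signal was taken, a spot intensity not normalized between arrays. The deposited series values are on a log2 scale and were used as an alternative. The submitters' processing notes name limma, and how those values were normalized is not given in the sources used here.

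Outlier spots were left out, the spots of 1 probe averaged, and log2 of the processed signal taken minus the 75th percentile of the array. Probes well above background throughout at least 1 group were tested (29794), and a gene was its tested probe with the highest mean (19500 genes). Groups were compared by lmFit and eBayes of limma 3.58.1 (R 4.3.3 with data.table, version 1.17.8). Benjamini-Hochberg adjustment was made over all genes, with a threshold of 0.05. The fit was also run on simulated independent arrays with known changes, which do not mimic the uneven controls. Pairs of subunits were compared by exact permutation with scipy 1.17.1 (Python 3.11.15, tables with pandas 2.3.3, figures with matplotlib 3.10.9). Probes were named through RefSeq accessions (32989), by a symbol in the files (10223) or by another name in the files (13386). Probe positions are those of the files (mm9), and promoters come from RefSeq on GRCm38.p6. The number of arrays limits the precision.

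The members and lists were chosen with earlier results of these data known. Every gene found by the naming rule could be named, together with up to 4 genes per further list and direction with the lowest p, and the neighbours of the immune and constitutive catalytic genes. Pomp and Nfe2l1 were named beside these after their values were seen. Alternatives were quantile normalization, normexp background correction (offset 50), spike-in scaling, the deposited values, no filter or a filter on all arrays for dim probes, the mean of a gene's probes, trend and robust eBayes, array weights, replicate number and slide as blocks, slide 1 alone, controls 1 and 2 averaged, control 3 alone and each array left out. Array weights were estimated gene by gene, since the usual estimate did not converge. Slide as a block and slide 1 alone give the same log2 fold changes, because slide 2 held only IFN-beta arrays.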

Additional observations from a re-analysis of the deposited data

How the results depend on the processing

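The log2 fold changes of Psmb9, Psmb8, Psme1 and Psmb10 kept their sign under all 20 alternatives, and the genes were called in 19, 17, 18 and 19 of them. Psmb8 lost its call with slide as a block, within slide 1 and against control 3 alone, Psme1 with slide as a block and within slide 1, and Psmb9 and Psmb10 within slide 1. The count of genes called higher, 7, is read against the share of all genes called higher, 11.8%. It was again 7 with normexp, or 15.9% of the 44, below the 19.7% of all genes. It was 8 with quantile normalization (13.2%), 9 with the mean of a gene's probes (12.5%) and 10 with the filter on all arrays (14%). It was 4 with spike-in scaling (5.19%), 15 with the deposited values (13.2%), 4 with no filter on dim probes (3.01%), 11 with trend and robust eBayes (14%), 42 with array weights (39.5%), 2 with slide as a block (3.41%), 0 within slide 1 (1.28%), 4 with controls 1 and 2 averaged (5.99%) and 3 against control 3 alone (5.22%). With each array left out it ran from 4 to 38, with 38 without control 3 (33.1%), 4 without control 1 (5.63%), control 2 (6.02%) or IFN-beta 3 (6.33%), and 5 without IFN-beta 1 (7.84%) or IFN-beta 2 (5.83%). None was called lower under any of them. List medians moved with spike-in scaling (1.01 immune, 0.24 constitutive catalytic, 0.053 other) and against control 3 alone (0.97, 0.33 and 0.092). With an array left out they ran from 1.23 to 1.60, 0.52 to 0.70 and 0.31 to 0.55. Pair differences moved against control 3 alone (0.51 for Psmb8 minus Psmb5, 0.93 for Psmb9 minus Psmb6) and within slide 1 (0.94 for Psmb9 minus Psmb6, 1.0 for Psmb10 minus Psmb7). No pair difference changed sign.

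The data do not settle whether replicate numbers pair the samples. Same-numbered arrays correlated at 0.072, 0.022 and 0.073 in their deviations, and each correlated best with its own number. With controls 1 and 2 nearly alike, these weak correlations cannot decide it. With the replicate block, 6 genes were called higher (9.79% of all genes). Psmb5 gained a call there (limma adjusted p = 0.0456), while Psmc4 (0.0615) and Psme2b (0.0532) lost theirs.

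Signs turned for subunits outside the immune and constitutive catalytic genes. The log2 fold change of Psmc5 was -0.072 with normexp, and with an array left out it ran from -0.091 (without IFN-beta 1) to 0.75 (without IFN-beta 3), with -0.083 without control 1. Spike-in scaling lowers each gene by 0.35, so the sign turned where the estimate was below that. It was -0.12 for Psmc5, -0.028 for Psma1, -0.19 for Psma7, -0.15 for Psmb1, -0.037 for Psmb2, -0.097 for Psmc3, -0.016 for Psmd1, -0.0055 for Psmd11, -0.077 for Psmd4, -0.0083 for Psmd6, -0.044 for Psmd7 and -0.026 for Psmf1. Against control 3 alone it was -0.066 for Psmc5, -0.067 for Psma1, -0.19 for Psma7, -0.25 for Psmb1, -0.11 for Psmb2, -0.036 for Psmd2, -0.017 for Psmd6 and -0.014 for Psmd8. For normexp and for control 3 alone the cause was not tested. Array number limits all of these values, and Psmb11, which is not above background, has none.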
